A study of Mus musculus with 18 samples.

Results

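The fetal hepatocyte and progenitor markers described here are 10 genes that mouse liver uses before birth or that mark bile duct and progenitor cells: Afp, H19, Igf2, Gpc3, Dlk1, Epcam, Krt19, Krt7, Sox9 and Spp1. They were taken by name, and each gene was read from the probe set annotated to it alone with the highest mean over all 18 arrays. Of the 10, 8 have such a set among the 18193 genes of the array, with 17 sets between them. H19 is represented by a set annotated to H19 and Mir675 together, which by this rule stands for neither. Spp1 was not analysed here.

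The study followed liver and kidney of male C57BL6 mice of 20 g after a hepatotoxin, D-galactosamine (GalN), was given into the peritoneum at 4.5 g/kg. In each organ there were 3 arrays 24 h after GalN, 3 arrays 48 h after GalN and 3 arrays 24 h after saline (sham). The mice carried no transgene or engineered allele named in the labels, and organs were perfused before RNA extraction. Sham mice were taken at 24 h only, and the 48 h comparisons with sham therefore differ in time since injection as well as in treatment. The arrays carry the letters A, B and C within a group, and p-values measure the spread between these arrays.

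Values are log2 expression values from Affymetrix arrays, made by the authors with gcRMA, a method that models probe background. The lowest value in the table is 2.21, and 46.8% to 48.7% of the values on an array lay within 0.1 of it. A group is called at the floor here when all 3 of its arrays were less than 1 above that value. A reading that recurs to the last digit in another array is taken as background. Arrays of the same group correlated at 0.98 to 1.00 across probe sets (Pearson r). Differences are log2 differences with their standard error (SE) from limma, a linear model fitted to all tested genes with a shared estimate of spread, and a gene is called at a Benjamini-Hochberg adjusted p under 0.05. Levels of different probe sets are not comparable with each other, and 3 arrays in a group limit the precision. Hepatocyte markers checked the liver label, with 0 of 8 at the floor in any liver group. In kidney 2 of the 8, Cps1 and Tat, were at the floor in every group, and the others were not. Summed as linear values and given as log2, the 8 were at 17.06 to 17.26 in sham kidneys, against 18.72 to 18.75 in sham livers. Summed levels of the lists below were made in the same way, and the brightest sets weigh most in them. Distal nephron and collecting duct markers checked the kidney label, with 0 of 8 at the floor in any kidney group. In liver 3 of these 8 were at the floor at 24 h, 4 at 48 h and 4 in sham livers. Their sum was 6.37 to 6.64 in sham livers, against 16.42 to 16.58 in sham kidneys.

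Afp encodes alpha-fetoprotein, the main serum protein of the fetus, which hepatoblasts make in large amounts and which liver represses within weeks of birth. It returns in regenerating liver and in liver tumours. Igf2 and Dlk1 are imprinted genes of fetal growth and Gpc3 is a cell surface proteoglycan of fetal liver. Krt7, Krt19, Epcam, Sox9 and Spp1 mark bile duct cells and the ductular cells that appear when hepatocytes are lost. In kidney, several of these genes are markers of tubule and collecting duct epithelium.

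The bases upstream of the annotated start are shown for Afp, called above sham in liver at 48 h, and for Krt7, called above sham in kidney at 24 h. Both are RefSeq sequence of build GRCm38.p6, 250 bases before the start, written 5′ to 3′ on the coding strand. Capitals mark matches to 5 motifs searched on both strands: the HNF1 half-site GTTAAT, the CEBP site TTGCNNAA, the TATA box TATAAA, the GC box GGGCGG and the Grainyhead site AACCGGTT. The Afp window is chr5:90490464-90490713 on the plus strand and the Krt7 window is chr15:101412153-101412402 on the plus strand.
Afp: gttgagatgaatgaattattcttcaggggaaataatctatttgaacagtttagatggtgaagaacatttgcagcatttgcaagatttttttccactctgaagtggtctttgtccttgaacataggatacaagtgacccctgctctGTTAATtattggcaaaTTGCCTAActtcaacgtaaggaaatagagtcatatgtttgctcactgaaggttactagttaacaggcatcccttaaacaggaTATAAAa
Krt7: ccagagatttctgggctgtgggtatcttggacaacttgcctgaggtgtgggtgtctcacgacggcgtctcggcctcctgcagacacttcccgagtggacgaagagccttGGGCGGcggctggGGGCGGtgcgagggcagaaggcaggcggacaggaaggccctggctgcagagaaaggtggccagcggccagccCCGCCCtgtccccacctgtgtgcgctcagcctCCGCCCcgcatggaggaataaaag

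In the Afp window the HNF1 half-site lies at -105 to -100 from the start, the CEBP match TTGCCTAA at -89 to -82 and the TATA box at -7 to -2. These motifs occur in 6.43%, 9.56% and 12.4% of the 32851 promoter windows of the same length. The Krt7 window holds 4 GC boxes, a motif present in 32.7% of the windows, and no match to the other 4 motifs. The Grainyhead site, found in 0.116% of windows, is in neither. No motif overlaps another in these windows, and a match of letters is a description and not a bound site.

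Afp, which lies at chr5:90490714-90508907, rose in liver at 48 h. Its log2 value was 10.36, 11.10 and 11.69 in livers at 48 h after GalN, against 7.95, 7.39 and 5.60 in sham livers. Every 48 h array lay above every sham array and above every 24 h array. The difference between 48 h and sham was 4.07 on the log2 scale (SE 0.65, 95% interval 2.55 to 5.59), or 16.8-fold (limma adjusted p = 0.0131). The arrays at 24 h after GalN, at 6.96, 7.69 and 8.00, overlapped the sham arrays. The difference between 24 h and sham was 0.57 (SE 0.65, 95% interval -0.95 to 2.09, limma adjusted p = 0.556). Afp thus stood apart at 48 h from 24 h, with a difference of 3.50 (SE 0.65), or 11.3-fold (limma adjusted p = 0.00726).

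Sham array C, at 5.60, was the lowest liver reading of Afp and set much of the spread in that group. Leaving out each liver array in turn gave differences between 48 h and sham of 3.38 to 4.55, with limma adjusted p-values of 0.0204 to 0.0429, so the call stood in all 9 fits. The difference between 24 h and sham was -0.12 without sham array C.

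**Figure D1:**
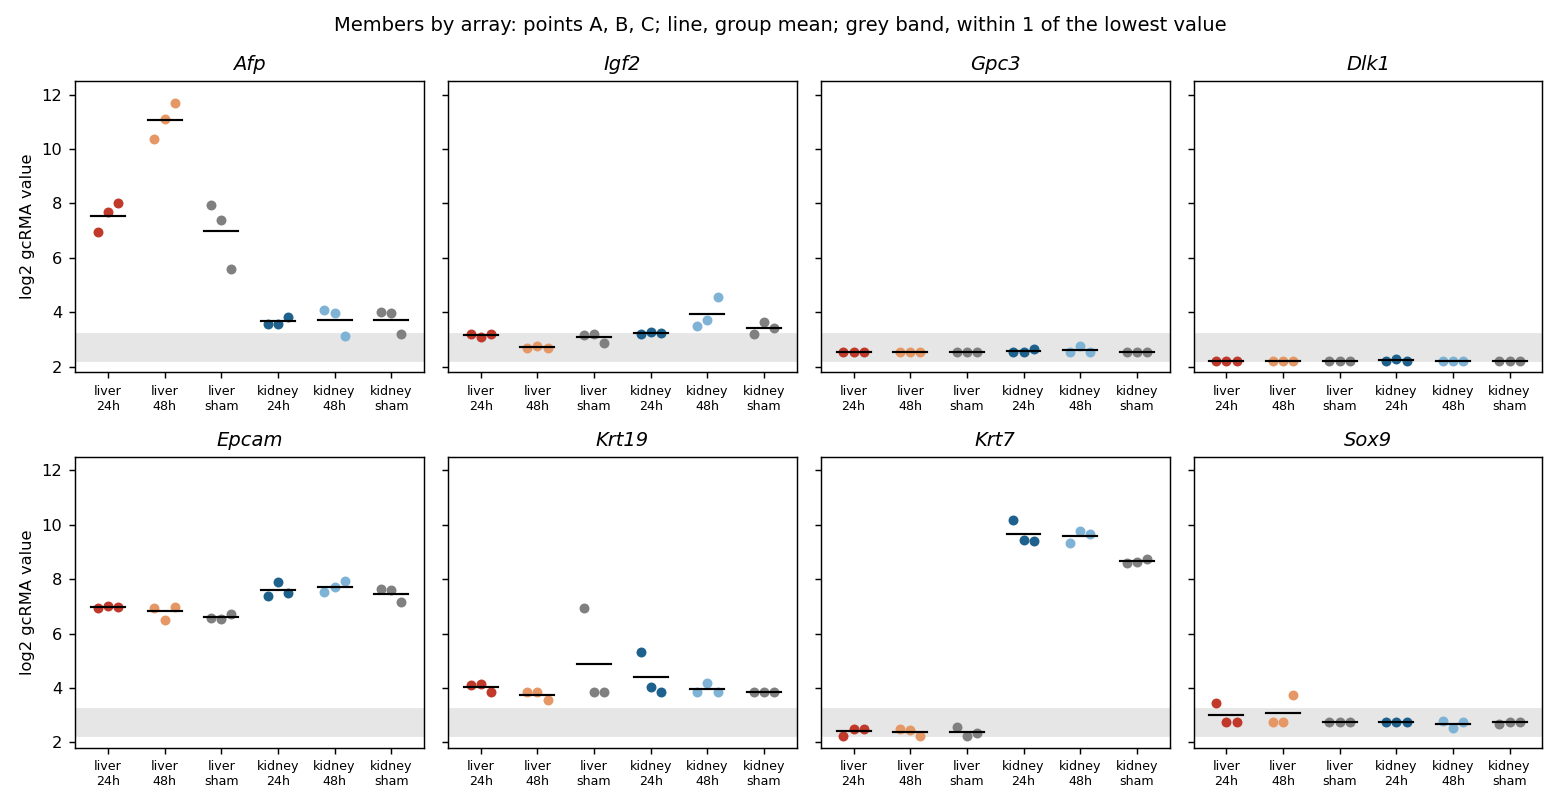
Log2 gcRMA value of each of the 8 members on every array (points A, B and C; line, group mean; n = 3 arrays per group), by organ and group. Afp in 48 h livers sits at 10.36 to 11.69, Krt7 is near the floor in all liver arrays and at 8.58 to 10.16 in kidney, and the grey band marks values within 1 of the lowest value, 2.21.

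Other sets named for Afp alone differed in how they read the gene. Set 1416646_at was at 8.56, 9.13 and 9.51 in 48 h livers, against 6.24, 5.03 and 2.59 in sham livers, a difference of 4.45 (SE 1.00, limma adjusted p = 0.0415 in a fit of all probe sets). Set 1436879_x_at was at 7.65, 8.56 and 9.16 in 48 h livers, against 6.15, 5.74 and 3.58 in sham livers. Its difference of 3.30 (SE 0.87) did not pass the test (limma adjusted p = 0.0662), although its 48 h arrays too lay above all its sham arrays. Sham array C was the lowest sham array on all 3 of these sets. Between 48 h and 24 h, set 1416646_at differed by 4.21 (limma adjusted p = 0.0223) and set 1436879_x_at by 3.06 (limma adjusted p = 0.0423). The remaining sets carried little signal: 1436880_at stayed between 2.21 and 2.41 on all 18 arrays, and 1436881_x_at read 2.42 to 4.23, with 13 of its 18 readings recurring. The mean of the 5 sets gave a smaller difference between 48 h and sham, 2.46 (limma adjusted p = 0.0373).

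**Figure D2:**
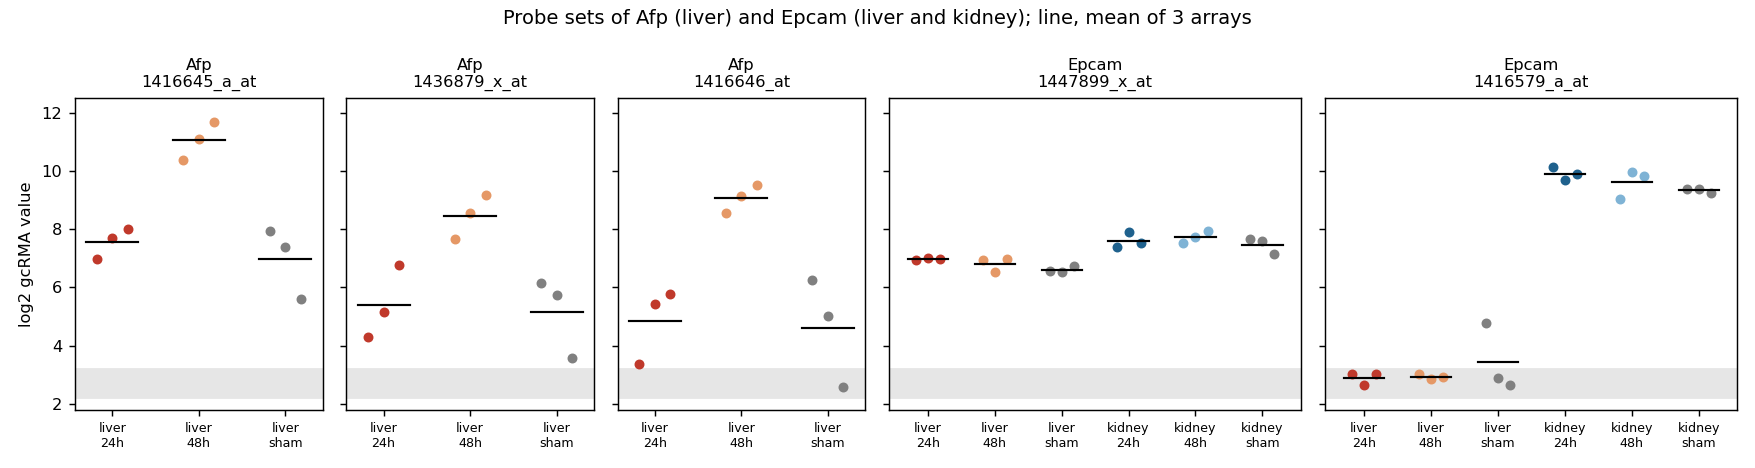
Log2 gcRMA value on each array of 3 probe sets of Afp in liver and 2 probe sets of Epcam in liver and kidney (points, arrays; line, mean of 3; grey band, within 1 of the lowest value). In liver all 3 Afp sets have their 48 h arrays above their 24 h and sham arrays, and the Epcam sets differ in how far kidney lies above liver.

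In kidney Afp read 3.58, 3.58 and 3.83 at 24 h, 4.07, 3.97 and 3.13 at 48 h, and 3.99, 3.97 and 3.19 in sham arrays. These groups overlapped, 4 of the 9 readings recur to the last digit, and the differences from sham were -0.052 at 24 h and 0.003 at 48 h (limma adjusted p = 0.968 and 1). On this set sham liver lay above sham kidney by 3.26 (SE 0.52, limma adjusted p = 0.000104), and by 2.78 without sham liver array A. The size, 9.60-fold here, depends on the set, at 5.05-fold on set 1416646_at, 3.76-fold on set 1436879_x_at and 2.84-fold with the mean of sets (limma adjusted p = 0.0174, 0.0275 and 0.00664), and the kidney readings are partly background, on set 1416646_at in all 3 sham kidneys.

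Of 8 hepatocyte markers, 2 fell at 24 h, against 15% of all genes tested, and 3 at 48 h, against 3.94%. At either time 0 of the 8 rose, against 17.9% and 6.24% of all genes. The median difference of the markers from sham was -0.14 at 24 h (range -1.77 to 0.12) and -0.31 at 48 h (range -0.61 to -0.050). Their summed linear level, given as log2, was 18.45 to 18.60 at 24 h and 18.40 to 18.59 at 48 h, against 18.72 to 18.75 in sham livers. The markers called at 48 h were Serpina1c, a serum protease inhibitor gene, which fell by 0.46, Cps1, the first enzyme of the urea cycle, which fell by 0.48, and Ttr, which encodes transthyretin and fell by 0.28 (limma adjusted p = 0.0156, 0.0168 and 0.0293), calls that stood in 7, 6 and 5 of the 9 fits that left out 1 liver array. Their part in the Afp result was not tested. In RNA of a whole organ, fewer cells of a type and less RNA per cell cannot be told apart.

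Beyond Afp, the fetal members of liver were at or close to background in every liver group. Igf2, which encodes the fetal insulin-like growth factor (chr7:142650768-142666816), read 3.19, 3.10 and 3.19 at 24 h, 2.67, 2.77 and 2.67 at 48 h, and 3.15, 3.21 and 2.86 in sham livers. All 9 arrays lie within 1 of the floor, and 4 of these readings recur. The fit called a difference of -0.37 between 48 h and sham (SE 0.090, limma adjusted p = 0.0452) and of -0.45 between 48 h and 24 h (limma adjusted p = 0.00948), but both groups are at the floor, so no fold is given. The call against sham was lost in 8 of the 9 fits that left out 1 liver array. The other Igf2 set, 1415931_at, read 2.21 on all 18 arrays.

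Igf2 in kidney read 3.19, 3.26 and 3.22 at 24 h, 3.49, 3.72 and 4.55 at 48 h, and 3.19, 3.63 and 3.42 in sham kidneys. Array C at 48 h was the highest of these, and the groups at 48 h and sham overlapped (difference 0.51, SE 0.26, limma adjusted p = 0.346). Gpc3, glypican-3, which regulates growth factor signals at the cell surface (chrX:52272426-52613974), lay between 2.53 and 2.74 on all 18 arrays, with 15 readings recurring. Dlk1, a membrane protein related to Notch ligands that marks hepatoblasts (chr12:109452485-109463336), lay between 2.21 and 2.27 on its brighter set and did not pass the filter on dim genes in either organ. The set shared by H19 and Mir675 read 2.21 to 2.22 on all 18 arrays. Igf2, Gpc3, Dlk1 and the shared set thus gave no level that could be compared between GalN and sham in liver.

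Among the bile duct and progenitor members, Krt7 changed in kidney. Krt7 encodes keratin 7, an intermediate filament protein of simple ductal epithelia (chr15:101412403-101427806). It read 10.16, 9.44 and 9.42 in kidneys at 24 h, 9.34, 9.75 and 9.65 in kidneys at 48 h, and 8.58, 8.64 and 8.74 in sham kidneys. Every GalN array lay above every sham array at both times. The difference from sham was 1.01 at 24 h (SE 0.21, 95% interval 0.52 to 1.51), or 2.02-fold, and passed the test (limma adjusted p = 0.0428). At 48 h it was 0.92 (SE 0.21, 95% interval 0.43 to 1.42), or 1.90-fold, and did not (limma adjusted p = 0.0711). The times themselves differed by -0.090 (48 h minus 24 h, SE 0.21, 95% interval -0.59 to 0.41, limma adjusted p = 0.876).

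The Krt7 call at 24 h sits close to the threshold. Among the 9 fits that left out 1 kidney array it stood in 2, with differences of 0.77 to 1.14 and limma adjusted p-values of 0.0397 to 0.132, and the 48 h difference was called in 1 fit, without 24 h array A (limma adjusted p = 0.0232). The 24 h call was also lost without the filter on dim genes (limma adjusted p = 0.0756) and in the rank product test named by the study's design (adjusted p = 0.11).

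In liver Krt7 was at the floor in every group, at 2.21 to 2.50 at 24 h, 2.21 to 2.50 at 48 h, and 2.21 to 2.56 in sham livers. In sham animals kidney carried at least 43.5 times the Krt7 signal of liver, taking liver at 1 above the lowest value (measured liver minus kidney difference -6.29, SE 0.19, limma adjusted p = 7.42e-13).

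Epcam, an adhesion molecule of epithelial progenitors and bile duct cells (chr17:87635979-87651127), was read differently by its sets. The brighter set, 1447899_x_at, carries the suffix that Affymetrix gives to sets with probes that can match other transcripts. It read 6.95, 7.01 and 6.99 in livers at 24 h, 6.94, 6.51 and 6.99 at 48 h, and 6.57, 6.53 and 6.72 in sham livers. The 24 h arrays lay above the sham arrays, by 0.38 (SE 0.15), without passing the test (limma adjusted p = 0.0902), and the 48 h and sham arrays overlapped. In kidney it read 7.37, 7.89 and 7.51 at 24 h, 7.51, 7.72 and 7.94 at 48 h, and 7.64, 7.59 and 7.15 in sham arrays, with all groups overlapping.

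Set 1416579_a_at of Epcam set the organs far apart. It read 10.13, 9.69 and 9.89 in kidneys at 24 h, 9.02, 9.97 and 9.81 at 48 h, and 9.39, 9.37 and 9.24 in sham kidneys, with a 24 h difference of 0.57 (SE 0.24, limma adjusted p = 0.224). In liver it lay between 2.64 and 3.02 in all 6 GalN arrays and read 4.77, 2.90 and 2.67 in sham livers. Its sham liver minus kidney difference was -5.89 (SE 0.41, limma adjusted p = 2.05e-08), against -0.85 on the brighter set (SE 0.18, limma adjusted p = 0.000983). Both sets put sham liver below sham kidney, and they disagree on the size.

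Krt19, keratin 19 of bile duct epithelium (chr11:100140810-100145926), read 4.12, 4.13 and 3.84 in livers at 24 h, 3.84, 3.84 and 3.56 at 48 h, and 6.94, 3.84 and 3.84 in sham livers. Of its 18 readings 11 recur, and sham liver array A was the only liver array above 4.13. In kidney, array A at 24 h read 5.30, and the other 8 arrays lay between 3.84 and 4.18. No difference from sham passed the test (limma adjusted p = 0.401 to 0.926 over organs and times).

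Sham liver array A was also the highest liver array on Epcam set 1416579_a_at (4.77). Prom1 and Muc1, picked after their values were seen from 19 named biliary and progenitor genes, were also higher there than in the other sham livers. Prom1, a progenitor surface protein, read 5.78 there, against 2.81 in both other sham livers. Muc1, an epithelial mucin, read 4.89 there and 2.84 and 2.81 in the others. Of those 19 genes, 5 (Cftr, Cldn4, Elf3, Foxl1 and St14) were at the floor in all 3 sham livers. So were Krt7 (2.56 on array A) and Sox9 (2.76 on its brightest set). Values of the other listed genes on sham liver array A are not given here. Without sham liver array A, the Krt19 difference between 24 h and sham was 0.19, against -0.84 with it, and neither was called.

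Sox9, a transcription factor of bile duct and progenitor cells (chr11:112782210-112787757), stayed near background on its 3 sets. Set 1433889_at, the brightest, read 3.45, 2.76 and 2.76 in livers at 24 h, 2.76, 2.76 and 3.72 at 48 h, and 2.76 in each sham liver. Set 1451538_at read 3.59, 3.24 and 2.23 in livers at 24 h, 2.28, 2.22 and 2.28 at 48 h, and 2.22 in each sham liver, and was too dim to be tested. Set 1424950_at read 3.08, 2.85 and 3.31 in livers at 24 h, 3.23, 2.67 and 2.67 at 48 h, and 2.67 in each sham liver (24 h difference 0.41, SE 0.17, limma adjusted p = 0.124). All readings above 3 on these sets came from GalN livers, and array A at 24 h was above 3 on each of the 3 sets. In kidney the 3 sets stayed between 2.21 and 2.79.

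Counted over the 7 members that passed the filter on dim genes in each organ, calls were few. In liver at 24 h, limma called 0 of 7, where it called 32.9% of all 12071 genes tested (17.9% higher and 15% lower). At an unadjusted p under 0.05 the count was 1, Epcam, and the rank product test called 0. In liver at 48 h it called 2 of 7, Afp and the floor-level Igf2, against 10.2% of all genes (6.24% higher and 3.94% lower), and between 48 h and 24 h the same 2, against 27.8% (14.6% higher and 13.1% lower). In kidney it called 1 of 7 at 24 h, Krt7, against 5.31% of 12003 genes (2.21% higher and 3.1% lower). At 48 h in kidney it called 0 of 7, against 2.69% of genes (1.29% higher and 1.4% lower), with 1 at an unadjusted p under 0.05 and 0 in the rank product test. Between 48 h and 24 h in kidney it called 0 of 7, against 1.61% of genes, with 1 at an unadjusted p under 0.05. These counts are of members that a filter let through partly on background readings, and they are not evidence about the 10 genes as a group. The shares over all genes also serve for the lists below. For counts at an unadjusted p under 0.05 no share over all genes is given, here or below.

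The change from sham was compared directly between the organs in a fit of all 18 arrays, where liver and kidney each had their own sham. At 24 h, 1 of 7 members differed, Krt7 (liver minus kidney -0.98, SE 0.27, limma adjusted p = 0.0123), against 30.3% of 12467 genes (16.5% higher and 13.8% lower). At 48 h, 2 of 7 differed, against 13.1% of genes (8.41% higher and 4.68% lower): Afp, by 4.07 (SE 0.73, limma adjusted p = 0.0031), and Krt7, by -0.90 (SE 0.27, limma adjusted p = 0.0391). Since Krt7 is at the floor in liver, its difference is that of the kidney alone. This fit treats liver and kidney arrays as independent, and the labels do not say which organs came from the same mouse. With the letter as a fixed replicate block the limma adjusted p was 0.00626 for Afp at 48 h, 0.0214 for Krt7 at 24 h and 0.0595 for Krt7 at 48 h, the last no longer called. With a random block shared by liver and kidney arrays of 1 letter and group, an alternative chosen after seeing the data, these were 0.00239, 0.0111 and 0.0351. The same fit called 3 of 7 members between sham liver and sham kidney, Afp higher in liver and Epcam and Krt7 lower, against 47.6% of genes (18.9% higher and 28.7% lower).

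Among regulators of Afp and H19, 13 genes were tested in liver. At 24 h limma called 2 of them, against 32.9% of all genes tested. Ctcf, the insulator protein of the Igf2 and H19 locus, rose at 24 h, at 9.35, 9.57 and 9.80 in GalN livers, against 8.73, 8.65 and 8.73 in sham livers (difference 0.87, limma adjusted p = 0.00508). Cebpa, a transcription factor of mature hepatocytes, fell at 24 h, at 12.11, 11.77 and 10.73 in GalN livers, against 12.71, 12.95 and 12.77 in sham livers (difference -1.27, limma adjusted p = 0.0275), a call that stood in 6 of the 9 fits with 1 liver array left out. Cebpa at 48 h, at 11.44, 11.91 and 11.37, differed from sham by -1.24 (SE 0.34), about as much as at 24 h, without passing the test (limma adjusted p = 0.0671). At 48 h, when Afp was high, limma called 0 of the 13, against 10.2% of all genes tested. At an unadjusted p under 0.05 there were 2, and the rank product test called 0. The median difference of the list was 0.078 at 24 h and -0.25 at 48 h, against 0.0048 and 0.030 over all genes tested in liver.

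The genes known in mouse to repress Afp after birth, Zhx2 and Zbtb20, were named for that role and after their values were seen. Zhx2 read 6.98, 7.08 and 6.49 in 48 h livers, against 7.09, 7.22 and 7.55 in sham livers (difference -0.44, SE 0.19, limma adjusted p = 0.204). Zbtb20 read 8.99, 9.43 and 7.38 in 48 h livers, against 9.56, 10.13 and 10.57 in sham livers (difference -1.49, SE 0.54, limma adjusted p = 0.14). On both genes every 48 h array lay below every sham array, for Zhx2 narrowly (7.08 against 7.09), and neither difference passed the test. The share of all genes whose 48 h and sham arrays do not overlap is not given here. The part of these genes in the Afp result was not tested. Array C at 48 h was the lowest of its group for both genes, as for 10 of the 13 regulators, and its 75th percentile, 6.45, was the lowest of all 18 arrays. Without that array the Afp difference between 48 h and sham was 3.75 (limma adjusted p = 0.0253).

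**Figure D3:**
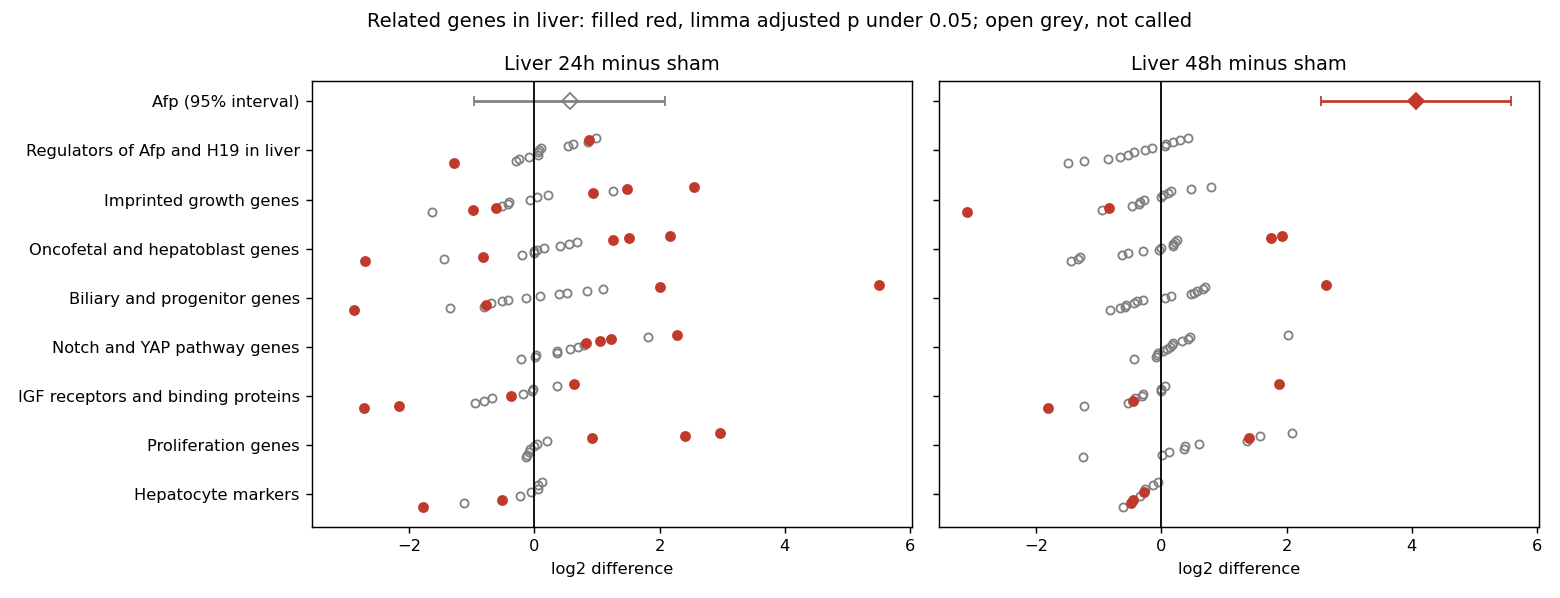
Log2 difference from sham in liver at 24 h and 48 h for Afp (diamond, with its 95% interval) and for each tested gene of 8 lists (circles; filled red, limma adjusted p under 0.05; open grey, not called). Afp stands at 0.57 at 24 h and 4.07 at 48 h. The regulators of Afp and H19 have 2 called genes at 24 h and 0 at 48 h. Of all genes tested, 32.9% are called at 24 h and 10.2% at 48 h.

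Imprinted growth genes had 13 tested members in liver, of which 3 rose and 2 fell at 24 h and 0 rose and 2 fell at 48 h. Over all genes tested, 17.9% rose and 15% fell at 24 h, and 6.24% rose and 3.94% fell at 48 h. Grb10, an adaptor that restrains insulin and IGF receptor signals, was at 7.19, 6.98 and 7.20 at 24 h, against 5.08, 4.07 and 4.57 in sham livers (difference 2.55, limma adjusted p = 0.000826). Meg3, a noncoding RNA of the locus that also holds Dlk1, was at 3.29, 3.56 and 4.62 at 48 h, against 6.51, 7.31 and 6.97 in sham livers (difference -3.11, SE 0.55, limma adjusted p = 0.0175). All 3 arrays at 48 h lay below all sham arrays for Meg3, while Dlk1 itself was at the floor throughout. The call on Meg3 was lost in 3 of the 9 fits that left out 1 array, with limma adjusted p-values up to 0.0658. Phlda2, a growth-restraining placental gene, was at the floor in sham livers and rose at 24 h by at least 1.54-fold (limma adjusted p = 0.000499), and Dcn, the matrix proteoglycan decorin, rose by 0.93. Slc22a18, a transporter gene near Phlda2, fell by 0.60 at 24 h and Igf2r, the receptor that clears IGF2, fell by 0.98. Gnas, a G protein subunit, fell by 0.83 at 48 h. With the mean of all sets of a gene, Grb10 rose by 0.85, Dcn by 0.47 and Meg3 fell by 0.80, all still called, while Gnas differed by -0.16 and was not (limma adjusted p = 0.188). The list's median difference was -0.061 at 24 h and -0.28 at 48 h, and in kidney limma called 0 of 13 at either time, with 3 and 1 at an unadjusted p under 0.05 and 0 in the rank product test.

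Of 14 oncofetal and hepatoblast genes tested in liver, 3 rose and 2 fell at 24 h, and 2 rose and 0 fell at 48 h. Of all genes tested in liver, 17.9% rose and 15% fell at 24 h, and 6.24% rose and 3.94% fell at 48 h. Pkm, the pyruvate kinase of fetal and growing tissue, was at 7.08, 7.50 and 6.88 at 48 h, against 5.27, 5.69 and 5.25 in sham livers (difference 1.75, limma adjusted p = 0.00817), and had risen by 2.16 at 24 h. Lpl, lipoprotein lipase, which liver makes mainly before weaning, was at 9.91, 10.51 and 9.86 at 48 h, against 7.87, 8.30 and 8.35 in sham livers (difference 1.92, limma adjusted p = 0.00849). Hk2, a hexokinase scarce in adult hepatocytes, rose at 24 h by at least 2.07-fold over a sham group at the floor. Onecut2 and Hhex, transcription factors of early liver development, fell by 2.71 and 0.81 at 24 h (limma adjusted p = 0.00599 and 0.0176). The list's median difference was 0.098 at 24 h and -0.019 at 48 h. In kidney, limma called 0 of 13 at 24 h, with 2 at an unadjusted p under 0.05 and 0 in the rank product test, and 1 at 48 h, Bex1, an adaptor of growth factor signalling, which rose by 1.25 (limma adjusted p = 0.0245, a call that stood in 5 of the 9 fits with 1 kidney array left out).

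Biliary and progenitor genes other than the members had 15 tested genes in liver. Limma called 2 higher and 2 lower at 24 h, against 17.9% and 15% of all genes. At 48 h it called 1 higher, against 6.24%. Tnfrsf12a, the receptor for TWEAK, a cytokine that drives progenitor growth in mouse liver, was at 10.27, 10.31 and 11.39 at 24 h and at 7.78, 8.05 and 7.50 at 48 h, against 4.90, 5.25 and 5.30 in sham livers. It rose by 5.51 at 24 h and by 2.63 at 48 h (limma adjusted p = 0.000109 and 0.00687). Sox4, a transcription factor of bile duct development, rose by 2.01 at 24 h (limma adjusted p = 0.0306), while Krt23, a keratin, and Cldn3, a tight junction protein, fell by 2.88 and 0.77. Krt23 was at the floor at 24 h, so its fall is read as at least 4.17-fold. The mean of all Sox4 sets differed by 0.21 and was not called (limma adjusted p = 0.0957), and the calls on Sox4 and Cldn3 each stood in 4 of the 9 fits with 1 array left out. Of the 19 named genes of the list, 9 were at the floor at 24 h and 8 at 48 h, against 5 in sham livers. Cftr, the chloride channel of bile duct cells, and Cldn4 were among them in all 3 groups. Muc1 and Prom1 were kept out of the sham count by sham array A alone. The same count over all genes is not given here. The median difference of the tested genes was -0.13 at 24 h and 0.055 at 48 h.

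Notch and YAP pathway genes, which direct bile duct fate, had 13 tested members in liver, of which 4 rose and 0 fell at 24 h. The shares over all genes at 24 h were 17.9% higher and 15% lower. Notch1, a receptor, was at 8.74, 8.66 and 9.27 at 24 h, against 6.33, 6.80 and 6.71 in sham livers (difference 2.28, limma adjusted p = 0.000695). Yap1, a transcriptional coactivator, rose by 1.23 and its target Ccn1 by 0.83 (limma adjusted p = 0.00591 and 0.0387), the second of these lost with the mean of all Ccn1 sets (limma adjusted p = 0.0929). Rbpj, the DNA-binding partner of Notch, rose by 1.04 (limma adjusted p = 0.0483). The call on Rbpj stood in 2 of the 9 fits with 1 array left out (limma adjusted p up to 0.138) and that on Ccn1 in 3 (up to 0.119). At 48 h limma called 0 of 13, with 3 at an unadjusted p under 0.05 and 1 in the rank product test, Ccn2. The median difference was 0.70 at 24 h and 0.14 at 48 h, and Sox9, a gene under Notch control in mouse liver, stayed near background at both times.

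Among 11 IGF receptors and binding proteins tested in liver, 1 rose and 3 fell at 24 h, and 1 rose and 2 fell at 48 h. Over all genes tested in liver, 17.9% rose and 15% fell at 24 h, and 6.24% rose and 3.94% fell at 48 h. Igfals, which holds IGFs in the circulating complex, was at 7.66, 8.49 and 8.14 at 48 h, against 9.55, 9.85 and 10.32 in sham livers (difference -1.81, limma adjusted p = 0.00939), and had fallen by 2.71 at 24 h. Insr, the insulin receptor, fell by 2.17 at 24 h. Igfbp1, a binding protein induced in fasting and in liver injury, was at 14.05, 14.00 and 12.72 at 48 h, against 11.75, 11.19 and 12.17 in sham livers (difference 1.89, limma adjusted p = 0.0497), a call that stood in 2 of the 9 fits with 1 array left out. Igfbp4 fell at both times, by 0.37 and 0.45, calls that stood in 5 and 2 of those 9 fits, and Igfbp7 rose by 0.63 at 24 h, against 0.14 with the mean of its sets (limma adjusted p = 0.583). With the mean of its sets Insr fell by 0.72. In kidney Igfbp1 also rose at 48 h, at 10.36, 10.13 and 10.34, against 8.32, 8.45 and 9.28 in sham kidneys (difference 1.59, limma adjusted p = 0.033, a call that stood in 3 of 9 such fits). The median difference of the list was -0.37 at 24 h and -0.30 at 48 h in liver, and 0.0092 and 0.17 in kidney, where limma called 0 of 11 at 24 h, with 2 at an unadjusted p under 0.05 and 0 in the rank product test.

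Osteopontin, the product of Spp1, signals through Cd44 and integrins, and 6 such receptors were tested in liver. At 24 h limma called 1 of 6, against 32.9% of all genes. Cd44 was at 8.76, 8.79 and 9.05 at 24 h, against 7.70, 7.38 and 8.13 in sham livers (difference 1.13, limma adjusted p = 0.0333), a call that stood in 4 of the 9 fits with 1 array left out. At 48 h limma called 0 of 6, with 1 at an unadjusted p under 0.05 and 0 in the rank product test.

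Of 10 proliferation genes tested in liver, 3 rose at 24 h, against 17.9% of all genes, and 1 at 48 h, against 6.24%. At 24 h these were Pcna, the DNA polymerase clamp, which rose by 0.92, and the replication helicase subunits Mcm2 and Mcm5, which rose by 2.97 and 2.40, the last not called with the mean of its sets (1.06, limma adjusted p = 0.0799). The calls on Mcm2 and Mcm5 stood in 4 and 3 of the 9 fits with 1 array left out. At 48 h Cdk1, the mitotic kinase, was at 5.32, 5.09 and 5.39, against 3.87, 3.91 and 3.82 in sham livers (difference 1.40, SE 0.084, limma adjusted p = 0.00148). Cdk1 was thus above its 24 h arrays (3.76, 3.76 and 3.74) and its sham arrays at the time when Afp was, and it was 1 of 10 in its list called at 48 h. The list's median difference was 0.022 at 24 h and 0.50 at 48 h. In kidney limma called 0 of 11 at 24 h and at 48 h, with 0 and 3 at an unadjusted p under 0.05 and 3 and 4 in the rank product test. Over all genes the rank product test called 165 in kidney at 24 h, and its total at 48 h is not given here. The median difference of the list there was -0.86 at 24 h and 1.01 at 48 h.

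Markers of other cell types moved in the same livers as Afp. Macrophage markers rose in 5 of 11 at 24 h and in 3 of 11 at 48 h, and 0 fell. Of all genes tested in liver, 17.9% rose at 24 h and 6.24% at 48 h. C1qb, a complement subunit made by macrophages, was at 13.15, 13.16 and 12.94 at 48 h, against 11.75, 12.20 and 11.94 in sham livers (difference 1.12, limma adjusted p = 0.00513). With 1 liver array left out, the calls at 48 h stood in 9 of 9 fits for C1qb, 6 for Cd5l and 2 for Cd68. Summed as linear values and given as log2, the macrophage list was at 14.45 to 14.61 at 24 h and 14.15 to 14.26 at 48 h. In sham livers it was at 12.96 to 13.57, with Itgax at the floor in all groups. Endothelial markers rose in 4 of 6 at 24 h and in 1 of 6 at 48 h, Lyve1, a receptor of sinusoidal endothelium (a call that stood in 3 of the 9 fits with 1 array left out), and their summed level was 9.74 to 11.08 at 24 h and 9.79 to 10.02 at 48 h, against 9.26 to 9.37 in sham livers. The calls at 24 h stood in 9 such fits for Lyve1, 6 for Cdh5, 5 for Tek and 4 for Pecam1. Stellate and fibroblast markers rose in 2 of 8 at 24 h, Lrat and Pdgfrb (Lrat not with the mean of its sets, limma adjusted p = 0.0667), and in 0 at 48 h, with 2 at an unadjusted p under 0.05 and 0 in the rank product test. Their summed level was 11.72 to 12.18 at 24 h and 11.00 to 12.64 at 48 h, against 11.05 to 12.10 in sham livers. The calls on Lrat and Pdgfrb stood in 6 and 4 of the 9 fits with 1 array left out.

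Mesothelial markers stayed low in liver, with 0 of 4 called at either time by limma, 0 at an unadjusted p under 0.05 and 0 in the rank product test. Their summed level was 5.31 to 6.31 at 24 h and 5.04 to 5.34 at 48 h, against 5.19 to 5.33 in sham livers, and Wt1, Upk3b and Lrrn4 were at the floor in every liver group. Erythroid markers fell in 1 of 3, Alas2, the heme synthesis enzyme of red cell precursors, by 0.65 at 24 h and 1.70 at 48 h. Their summed level was 9.56 to 9.91 at 24 h and 8.52 to 9.09 at 48 h, against 10.27 to 10.52 in sham livers, with Hba-a1 at the floor in all groups. The part of these cell types in the Afp result was not tested.

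The kidney lists give the surroundings of the Krt7 rise. Distal nephron and collecting duct markers had 1 of 8 called at 24 h, Scnn1g, a subunit of the epithelial sodium channel. At 48 h 1 of 8 was called, Hsd11b2, which inactivates glucocorticoids in collecting duct cells. Limma called 5.31% of all genes tested in kidney at 24 h and 2.69% at 48 h. Scnn1g was at 8.85, 8.65 and 8.68 at 24 h, against 7.84, 8.07 and 7.62 in sham kidneys (difference 0.88, limma adjusted p = 0.0223). Hsd11b2 was at 12.37, 12.51 and 12.39 at 48 h, against 11.99, 11.76 and 11.46 in sham kidneys (difference 0.69, limma adjusted p = 0.039). The call on Hsd11b2 stood in 2 of the 9 fits with 1 kidney array left out (limma adjusted p up to 0.136) and that on Scnn1g in 6 (up to 0.0626). At an unadjusted p under 0.05 the list had 6 of 8 at 24 h and 3 at 48 h. The share of all genes at that unadjusted threshold is not given here. The rank product test called 1, Aqp2, at 24 h and 0 at 48 h. The list's median difference was 0.47 at 24 h and 0.51 at 48 h, against 0 at both times over all genes tested in kidney. Its summed level was 16.45 to 16.67 at 24 h and 16.58 to 16.74 at 48 h, against 16.42 to 16.58 in sham kidneys, and the part of these cells in the Krt7 result was not tested.

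**Figure D4:**
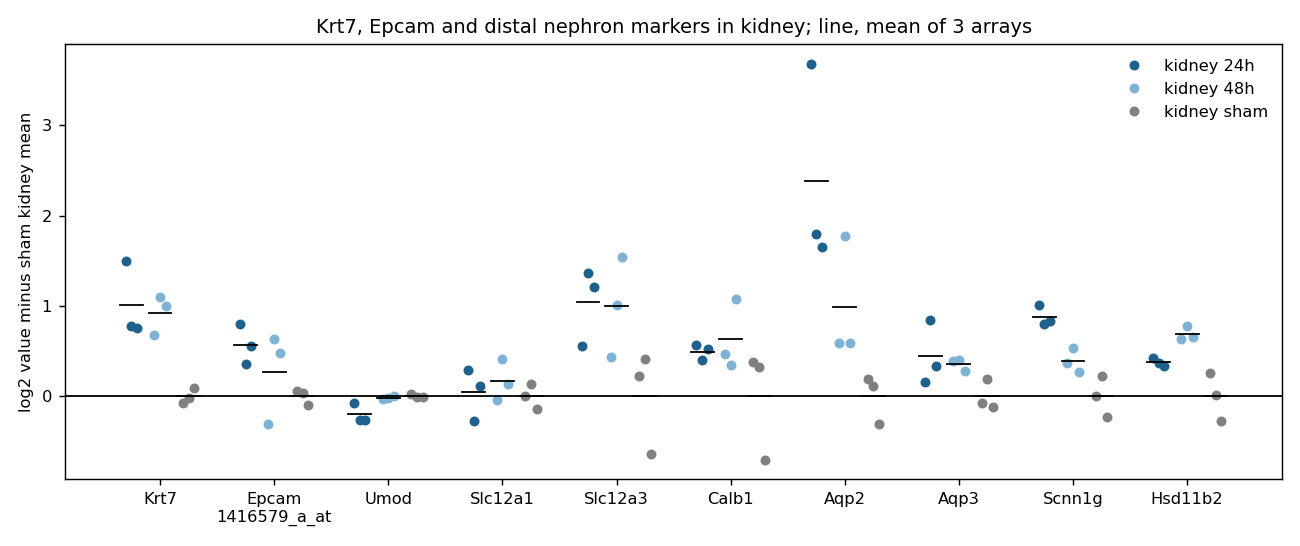
Log2 value minus the sham kidney mean for Krt7, the second Epcam set and 8 distal nephron and collecting duct markers on each kidney array (points, arrays; line, mean of 3), with 24 h, 48 h and sham from left to right. All 6 Krt7 points after GalN lie above the sham points, and Scnn1g at 24 h and Hsd11b2 at 48 h are the called markers.

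Among the tubular injury genes, Lgals3, galectin-3, rose at both times in kidney and Lcn2, a tubular injury marker, at 24 h. Lgals3 was at 10.96, 11.29 and 10.75 at 24 h and at 10.78, 11.08 and 10.97 at 48 h, against 9.96, 9.68 and 9.51 in sham kidneys (differences 1.28 and 1.23, limma adjusted p = 0.0192 and 0.0234). Lcn2 was at 8.77, 9.39 and 7.90 at 24 h, against 4.62, 4.46 and 2.70 in sham kidneys (difference 4.76, limma adjusted p = 0.0225). With 1 kidney array left out, the calls on Lgals3 stood in 8 of 9 fits at 24 h and 4 at 48 h, and that on Lcn2 in 6. Fgb, a fibrinogen chain, was also called at 48 h, on readings of 3.09 to 3.51 that are mostly background. Of 10 tested genes, 2 were called at each time, against 5.31% of all genes at 24 h and 2.69% at 48 h. The median difference of the list was 0.25 at 24 h and 0.21 at 48 h.

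Of 17 biliary and progenitor genes tested in kidney, 1 rose at 24 h, Tnfrsf12a, against 2.21% of all genes. Tnfrsf12a was at 7.83, 7.93 and 7.56, against 6.54, 6.32 and 6.32 in sham kidneys (difference 1.38, limma adjusted p = 0.0101). At 24 h, 9 of the 17 had an unadjusted p under 0.05 and the rank product test called 5, Cftr, Ehf, Elf3, Krt18 and Tnfrsf12a. The share of all genes at that unadjusted threshold is not given here, and the rank product test called 165 genes in all. Limma called 0 at 48 h, with 3 at an unadjusted p under 0.05 and 2 in the rank product test, Cftr and Krt18. The rank product total over all genes at 48 h is not given here. Krt18, a partner keratin of simple epithelia named here after its values were seen, was at 10.05, 8.59 and 8.70 at 24 h, against 7.47, 7.65 and 7.04 in sham kidneys (difference 1.72, SE 0.39, limma adjusted p = 0.0535). Array A at 24 h was the highest kidney array for Krt7, Krt18 and Krt19, and for Aqp2, the collecting duct water channel, also named after its values were seen (difference 2.38, limma adjusted p = 0.0651). The list's median difference in kidney was 0.44 at 24 h (range -1.28 to 1.72) and 0.26 at 48 h (range -2.16 to 1.57). Proximal tubule markers rose in 1 of 6 at 24 h, Aqp1, a water channel, by 0.77, against 2.21% of all genes. At 48 h 2 of 6 rose, Aqp1 and Cubn, against 1.29%. Slc22a6, an organic anion transporter, fell by 0.55 at 48 h, when 1.4% of all genes fell. With 1 kidney array left out, the calls on Aqp1 stood in 6 of 9 fits at 24 h and 5 at 48 h, and those on Cubn and Slc22a6 in 2 each. Their summed level was 16.08 to 16.28 at 24 h and 16.24 to 16.33 at 48 h, against 16.02 to 16.22 in sham kidneys.

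The genes whose pattern was most like that of Afp over the 9 liver arrays were Ankrd39, Coprs and Kif22 (Pearson r 0.99, 0.99 and 0.98 among 11424 genes). Ankrd39 averaged 6.12 ± 0.27 at 48 h and 5.05 ± 0.28 in sham livers (SD, n = 3). Kif22 averaged 8.81 ± 0.30 at 48 h and 7.65 ± 0.40 in sham livers (SD, n = 3). The ranges of both genes at 48 h lay above those at sham. Both were picked for likeness to Afp on these same arrays, so this is not a separate result. The genes most like Krt7 over the 9 kidney arrays were Dbndd2, Tprgl and Ajuba (Pearson r 0.99, 0.97 and 0.97 among 11381 genes). Dbndd2 averaged 6.74 ± 0.47 at 24 h and 5.88 ± 0.10 in sham kidneys (SD, n = 3). Ttr, Angptl8 and Itm2b were nearest to Igf2 in liver (Pearson r 0.96, 0.96 and 0.95), a likeness to readings that are background. The arrays share the groups, so such correlations follow the group means and carry no test.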

How the data were processed

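RNA of liver and kidney was labelled with a one-cycle kit and hybridised to 18 single-colour Affymetrix mouse arrays, per the labels' protocols. The authors deposited log2 values per probe set made with GCRMA, per the submitters' processing notes, with no version stated. The values were used as deposited. Of 45101 sets, 64 are controls, 34945 are annotated to 1 gene, 932 to several and 9160 to none. The Entrez identifier of 34741 of the single-gene sets was found in RefSeq and 0 symbols changed. The set with the highest mean stood for each of 18193 genes.

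A gene was tested where it was above the array median in at least 3 arrays of an organ (12071 genes in liver, 12003 in kidney, 12467 in the 18-array fit). The test was limma 3.58.1 (R 4.3.3), two-sided, with an intensity trend, on 9 arrays per organ, with Benjamini-Hochberg adjustment over all tested genes. Differences between organs came from a fit of all 18 arrays. The protocol can be read as pooling RNA of 3 mice, and arrays were treated as separate samples. Same letters did not deviate together (r -0.12 to 0.08 in liver, -0.12 to 0.24 in kidney), so the letters were not used as pairs. Liver and kidney of the same group and letter correlated at -0.072 to 0.274, with 2 of 9 over 0.1, against 0 of 18 of other letters, and the organ comparisons treat these arrays as independent. The fits were tested on simulated data. Named genes were the members, up to 4 called genes with the smallest p of each list and comparison with sham, and the 3 nearest patterns of each called member. The members and lists were chosen with earlier results of these data known. Alternatives were no filter, a filter at a value above 5, the mean of all sets, every other set of a member, quantile normalization, no trend, the letter as a block, all 18 arrays, rank product with 100 permutations, leaving out each array and, added after seeing the data, a random block shared by liver and kidney arrays of 1 letter and group.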

Additional observations from a re-analysis of the deposited data

Results flagged for a closer look

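In 3 results the change from sham differed between the organs by a test of the difference itself in the fit of all 18 arrays. For Afp at 48 h, the liver change exceeded the kidney change by 4.07 (SE 0.73, limma adjusted p = 0.0031), and it kept this call in all 18 fits that left out 1 array. For Krt7 at 24 h, the liver change was below the kidney change by a difference of -0.98 (SE 0.27, limma adjusted p = 0.0123). For Krt7 at 48 h the difference was -0.90 (SE 0.27, limma adjusted p = 0.0391), and it stood in 9 of 18 such fits. Krt7 was at the floor in liver, so these differences carry the kidney values only. With 3 arrays in each group, no array was tested as an outlier.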

How the results depend on the processing

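The Afp rise in liver at 48 h kept its call under 8 alternatives (no filter, a value above 5, the mean of sets, quantile normalization, no trend, the letter as a replicate block, all 18 arrays, rank product), with adjusted p-values of 0.000131 to 0.0498, the highest with the replicate block. Of its other sets, 1416646_at kept the call (limma adjusted p = 0.0415). It was lost on 1436879_x_at and on the mostly background 1436881_x_at (limma adjusted p = 0.0662 and 0.693). Genes called in liver at 24 h numbered 600 by rank product, against 3966. In liver at 48 h they numbered 769 without the filter, 605 with the replicate block, 2492 with all 18 arrays and 284 by rank product, against 1228. In kidney at 24 h they numbered 285, 143, 361 and 165 in that order, against 637. In kidney at 48 h they numbered 131 without the filter, 512 above a value of 5, 49 with the replicate block and 198 with all 18 arrays, against 323. Between 48 h and 24 h in kidney they numbered 64 without the filter and 4 with the replicate block, against 193. Of the members, liver at 24 h had 1 called with the mean of sets. Liver at 48 h had 1, Afp, without the filter, above a value of 5, with the mean of sets, quantile normalization, no trend, the replicate block, all 18 arrays and rank product. Between 48 h and 24 h in liver 1 was called above a value of 5 and with all 18 arrays. Kidney at 24 h had 0 without the filter, with the replicate block and by rank product. Kidney at 48 h had 1 above a value of 5, with quantile normalization and with all 18 arrays. The organ difference at 48 h had 1 without the filter and with the replicate block. Leaving out 1 array gave 448 to 1599 genes in liver at 48 h, 15 to 669 in kidney at 24 h, 29 to 469 in kidney at 48 h and 1 to 162 between 48 h and 24 h in kidney. The members called ranged from 0 to 1 in liver at 24 h and in kidney at 24 h and 48 h, from 1 to 2 in liver at 48 h, and from 1 to 3 in the organ difference at 48 h. Differences that changed sign were not called in either form, except Afp between 48 h and 24 h in liver, which was called at 3.50 and changed sign on the mostly background set 1436881_x_at, without a call there. Without 1 array, Afp ranged from -0.12 to 1.05 in liver at 24 h, from -0.31 to 0.085 in kidney at 24 h, from -0.26 to 0.30 in kidney at 48 h, from -0.12 to 0.35 between 48 h and 24 h in kidney, and from -0.068 to 1.10 for the organ difference at 24 h. Likewise Krt7 ranged from -0.22 to 0.15 between 48 h and 24 h in kidney, Epcam from -0.030 to 0.24 in kidney at 24 h, and Krt19 from -1.36 to 0.19 in liver at 24 h. With other sets, Afp was at -0.26 between 48 h and 24 h in liver and 0.012 in kidney at 24 h on set 1436881_x_at, and -0.080 in kidney at 48 h on set 1436879_x_at. Afp in kidney at 48 h was -0.024 with the mean of sets and -0.034 with quantile normalization. Epcam in liver at 24 h was -0.089 with the mean of sets and -0.55 on set 1416579_a_at. The replicate block changed the Krt7 call in kidney at 24 h (adjusted p = 0.103) and in the organ difference at 48 h (adjusted p = 0.0595). A random replicate block shared by liver and kidney arrays of 1 letter and group, chosen after seeing the data, changed no organ call of Afp or Krt7. The mean of all sets of a gene moved 26 of 85 called values of named genes by over 1.5 times or took them past the threshold, among them Cd44 in liver at 24 h (adjusted p = 0.0735), Igfbp1 in liver at 48 h (adjusted p = 0.0521), and Cubn and Slc22a6 in kidney at 48 h (adjusted p = 0.0586 and 0.0847). The cause of these changes was not tested. Signal near the floor limits what can be read for H19, Igf2, Gpc3, Dlk1, Sox9 and, in liver, Krt7.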
